A study of Rattus norvegicus with 6 samples.

Results

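The 10 genes described here belong to the thioredoxin and peroxiredoxin system and were chosen with earlier results of these data known. They were taken by name: Txn1, Txn2, Txnrd1, Txnrd2, Txnip, Prdx1, Prdx3, Prdx5, Prdx6 and Srxn1. Each matched 1 of the 56748 rows of the deposited count table, and all 10 were among the 16993 genes that passed the filter on low counts. The libraries were made from poly(A)-selected RNA of primary neurons of the dorsal root ganglion (DRG), which holds the cell bodies of sensory nerves, labelled as rat. Extracellular vesicles from acutely denervated muscle were given to the cells of 3 libraries (EVadMu), and vesicles from innervated muscle to those of the other 3 (EVMu). The labels give no strain, age, vesicle dose or exposure time, and no group went without vesicles, so a lower level in EVadMu cannot be told apart from a higher level in EVMu. The labels do not state whether a group's libraries are separate cultures or animals. The p-values therefore reflect only how far these libraries spread, and that spread may be technical.

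Thioredoxins are small proteins that pass electrons to oxidised partner proteins and are themselves reduced by thioredoxin reductases, selenoproteins that draw on NADPH. Peroxiredoxins use a reactive cysteine to break down hydrogen peroxide, and most of them are then reduced by thioredoxin. Cytosol and mitochondria hold separate sets of these proteins. In neurons the mitochondrial set is known for clearing peroxide made by respiration, and several of the cytosolic genes are textbook targets of the transcription factor NRF2.

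Of the 10 genes, 8 rose and 1 fell in EVadMu relative to EVMu, and 1 did not pass the test. Levels are given in CPM, the reads of a gene relative to the size of the library, scaled with edgeR's TMM factors. Prdx6 had the highest log2 fold change of them (2.14 ± 0.038, SE), followed by Prdx1 (1.90 ± 0.029), Txn2 (1.74 ± 0.040) and Txnrd1 (1.69 ± 0.032). Txnip, the inhibitor of thioredoxin, moved the other way (-2.40 ± 0.062), and Txn1 stood at 0.09 ± 0.043. These values come from edgeR's quasi-likelihood test over 3 libraries a group with Benjamini-Hochberg adjustment over all 16993 genes and a threshold of 0.05. Across all genes tested, 80.0% passed, 39.2% as higher and 40.8% as lower, so passing the test does not set these genes apart. At 2-fold or more, 6 of the 10 rose and 1 fell, where 41.1% of all genes tested passed at that size, 17.6% as higher and 23.5% as lower. The median log2 fold change was 1.26 over the 10 genes and -0.02 over all genes tested. Prdx2 and Prdx4, the peroxiredoxins that are not among the 10, both fell (-0.37 and -1.32). In TMM-scaled CPM the libraries of the groups did not overlap for 9 of the 10 genes, 8 higher and 1 lower in EVadMu. Among all genes tested this held for 80.7% (39.4% higher and 41.4% lower). Together the 10 genes took 0.418 to 0.432% of all counts in the EVadMu libraries and 0.207 to 0.210% in the EVMu libraries.

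**Figure D1:**
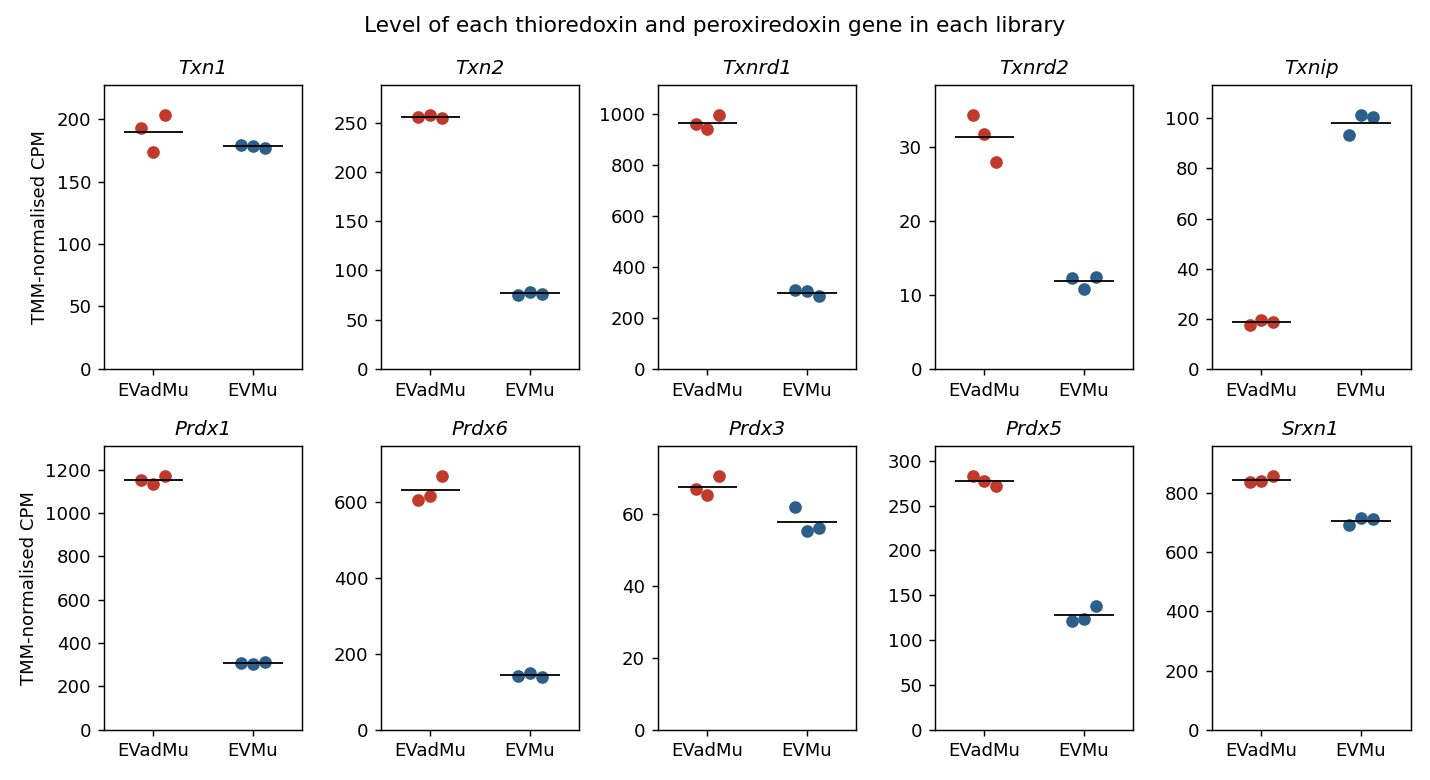
Level of each of the 10 genes in TMM-scaled CPM (vertical axes from 0), with 1 point per library and a bar at the mean of 3 libraries, EVadMu in red and EVMu in blue. The points of the groups overlap for Txn1 alone, and Txnip is the one gene with its EVadMu points below its EVMu points.

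**Figure D2:**
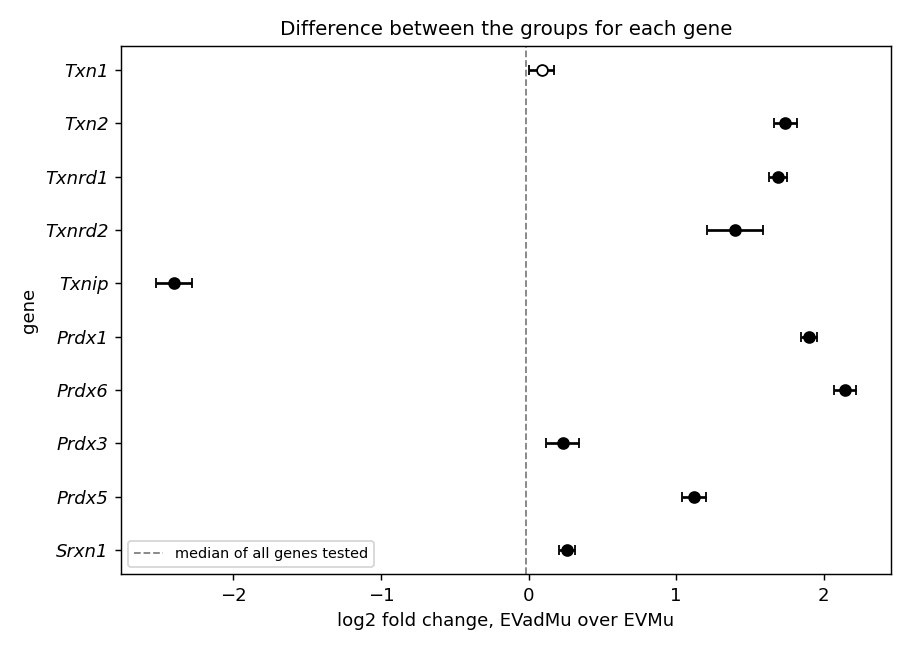
Log2 fold change of EVadMu over EVMu for each of the 10 genes (horizontal axis) with 95% intervals from the standard error. Filled points passed the adjusted threshold of 0.05, the open point (Txn1) did not, and the dashed line marks the median of all genes tested, -0.02.

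Library totals ran from 14853115 to 17019877 counts. All 16 sensory neuron markers had counts in both groups, and their summed level was 4576 to 4711 CPM in EVadMu and 7121 to 7346 CPM in EVMu. Of these markers 12 were lower and 1 was higher, where 40.8% of all genes tested were lower and 39.2% higher. Markers of other cells were also present. The 10 markers of Schwann and satellite glia summed to 895 to 931 CPM in EVadMu and 3371 to 3420 CPM in EVMu (9 lower), and the 8 fibroblast markers to 235 to 249 CPM in EVadMu and 5381 to 5448 CPM in EVMu (8 lower). The 5 endothelial markers summed to 79.2 to 84.9 CPM in EVadMu and 258 to 271 CPM in EVMu (5 lower). The 9 macrophage and leukocyte markers summed to 132 to 139 CPM in EVadMu and 93.5 to 102 CPM in EVMu. Of the 7 tested, 6 were lower and 1 was higher, the lysosomal gene Cd68, at 131.4 ± 3.23 CPM in EVadMu and 12.9 ± 1.90 CPM in EVMu (SD, n = 3). The 10 genes of skeletal muscle fibres, the tissue that gave the vesicles, summed to 23.0 to 28.1 CPM in EVadMu and 2.79 to 3.99 CPM in EVMu. The 5 that were tested were higher. Of these, Ckm, Myh4 and Tnnt3 passed the filter on low counts only through the EVadMu libraries, so that they were higher is no result. In reverse, Ptprc, Adgre1, Cx3cr1, C1qa, Lum, Fbln1 and Kcnj10 passed it only through EVMu, so that they were lower is no result. One muscle gene, Myh7, had no counts in the EVMu libraries, and no other marker was at 0 throughout a group. All 10 genes described here are expressed by many cell types, and the part of the cell make-up in their differences was not tested. In these bulk samples fewer cells of a type and less RNA per cell cannot be told apart.

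Several genes of this system are known to be read by NRF2 through antioxidant response elements, so the promoters were searched for that element. The windows printed were chosen on the outcome of the search: all 4 that held a match, and those of Txn1 and Txn2 as examples without one. Windows of 250 bases before to 50 bases after the start of transcription were taken from RefSeq for the rat build GRCr8, whereas the counts carry mouse identifiers and the mouse build mm39. By symbol, 8 of the 10 genes matched, with 9 windows, since Txnrd1 has 2. No window was found for Txnip and Prdx6, so these genes were not searched for any motif. The element's core was searched as TGACNNNGC and as TGAGNNNGC on both strands. The first is in 12.1% of the 33469 rat windows, the second in 17.2%, and either in 27.1%. Capitals mark the matches, and all sequences run 5′ to 3′ on the strand of the gene.
Prdx1 (chr5:135383656-135383955, plus strand): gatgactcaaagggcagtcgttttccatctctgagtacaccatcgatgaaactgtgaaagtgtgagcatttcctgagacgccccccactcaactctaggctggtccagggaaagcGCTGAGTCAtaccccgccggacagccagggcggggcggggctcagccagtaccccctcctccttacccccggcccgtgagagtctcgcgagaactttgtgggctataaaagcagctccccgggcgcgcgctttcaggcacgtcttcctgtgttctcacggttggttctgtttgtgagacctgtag
Txnrd1, second window (chr7:22755855-22756154, minus strand): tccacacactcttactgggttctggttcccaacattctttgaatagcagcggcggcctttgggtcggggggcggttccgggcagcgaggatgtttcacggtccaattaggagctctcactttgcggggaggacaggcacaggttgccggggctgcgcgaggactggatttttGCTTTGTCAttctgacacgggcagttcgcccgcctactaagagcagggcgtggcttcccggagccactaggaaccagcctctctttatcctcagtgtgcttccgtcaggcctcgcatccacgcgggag
Prdx5 (chr1:213531978-213532277, minus strand): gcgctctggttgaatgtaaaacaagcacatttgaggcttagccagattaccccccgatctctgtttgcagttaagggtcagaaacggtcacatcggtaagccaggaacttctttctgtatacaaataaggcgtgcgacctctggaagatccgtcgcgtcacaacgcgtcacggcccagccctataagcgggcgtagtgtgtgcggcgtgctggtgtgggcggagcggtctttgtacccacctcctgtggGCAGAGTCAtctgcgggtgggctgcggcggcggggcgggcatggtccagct
Srxn1 (chr3:161064562-161064861, plus strand): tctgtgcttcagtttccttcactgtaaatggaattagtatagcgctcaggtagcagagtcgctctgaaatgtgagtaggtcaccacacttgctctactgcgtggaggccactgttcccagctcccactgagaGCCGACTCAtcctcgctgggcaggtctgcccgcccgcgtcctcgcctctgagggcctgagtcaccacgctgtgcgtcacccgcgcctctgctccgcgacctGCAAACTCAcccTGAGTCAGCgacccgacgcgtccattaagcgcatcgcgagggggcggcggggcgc
Txn1 (chr5:77519636-77519935, minus strand): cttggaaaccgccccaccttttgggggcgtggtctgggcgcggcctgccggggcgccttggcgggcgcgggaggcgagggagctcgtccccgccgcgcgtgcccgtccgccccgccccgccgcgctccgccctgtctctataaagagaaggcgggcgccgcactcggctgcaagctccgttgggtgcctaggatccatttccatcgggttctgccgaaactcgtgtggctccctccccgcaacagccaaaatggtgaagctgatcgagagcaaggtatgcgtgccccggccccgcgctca
Txn2 (chr7:111390891-111391190, minus strand): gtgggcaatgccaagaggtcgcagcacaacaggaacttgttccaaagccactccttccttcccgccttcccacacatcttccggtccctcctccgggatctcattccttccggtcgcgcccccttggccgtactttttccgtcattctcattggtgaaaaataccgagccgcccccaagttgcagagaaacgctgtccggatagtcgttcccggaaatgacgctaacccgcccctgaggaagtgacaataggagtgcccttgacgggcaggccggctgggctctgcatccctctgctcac

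Of the 8 genes with a window, 4 held a match. Prdx1 had 1 match to TGACNNNGC on the opposite strand, 127 to 135 bases before the start, and Txnrd1 had 1 on the opposite strand in its second window, 70 to 78 bases before the start. Prdx5 had 1 match that spans the start. Srxn1 had 3 matches to TGAGNNNGC, of which the one on the gene's own strand, TGAGTCAGC, spans the start. Txn1, which did not pass the test, had no match in its window, and neither did 3 genes that rose, Txn2, Txnrd2 and Prdx3, or the first window of Txnrd1. In the 4 genes with a match, the log2 fold changes ran from 0.26 (Srxn1, with the most matches) to 1.90 (Prdx1). In the searched genes without one they ran from 0.09 (Txn1) to 1.74 (Txn2). Whether matches and changes go together was not tested. The E-box letters CACGTG, in 6.42% of all windows, were in none of the 9. These are matches of letters only, and no binding was measured here.

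The thioredoxins of the cytosol and the mitochondria differed in how far they moved. Txn1, the thioredoxin of cytosol and nucleus, stood at 193, 173 and 203 CPM in EVadMu and 179, 178 and 177 CPM in EVMu. The groups overlapped, since EVadMu replicate 2 lay below all EVMu libraries and the other EVadMu libraries above them. Its log2 fold change of 0.09 ± 0.043 missed edgeR's threshold (adjusted p = 0.0506). Without EVadMu replicate 2 it was 0.17 (adjusted p = 0.000735), with RLE factors it was 0.11 and passed (adjusted p = 0.0185), and without scaling factors it was -0.02.

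Txn2, the thioredoxin that is imported into mitochondria, was at 256, 258 and 255 CPM in EVadMu and 75.2, 78.1 and 76.6 CPM in EVMu. All 3 EVadMu libraries were over 3 times as high as any EVMu library, and the level was 3.34-fold higher in EVadMu (edgeR adjusted p = 1.95e-29). The ratio of Txn1 to Txn2 counts within a library, which does not depend on the scaling of libraries, was -0.41, -0.57 and -0.33 on the log2 scale in EVadMu and 1.25, 1.19 and 1.21 in EVMu. It was thus lower in every EVadMu library, by 1.65 on average.

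The reductases of both compartments rose. Txnrd1, the cytosolic thioredoxin reductase, had 960, 940 and 994 CPM in EVadMu and 308, 304 and 286 CPM in EVMu, a 3.22-fold rise (edgeR adjusted p = 1.02e-31). Txnrd2, its mitochondrial counterpart, had 34.4, 31.8 and 28.1 CPM in EVadMu and 12.3, 10.8 and 12.4 CPM in EVMu, a 2.65-fold rise (edgeR adjusted p = 2.62e-15). Txnrd2 rested on the fewest counts among the genes that rose, 444 to 554 per EVadMu library and 167 to 219 per EVMu library, and its standard error of 0.097 was the widest of the 10. The log2 ratio of Txnrd1 to Txnrd2 counts was 4.80, 4.89 and 5.14 in EVadMu and 4.64, 4.81 and 4.52 in EVMu, so the groups overlapped. Its difference of 0.29 gave p = 0.2 in a two-sided exact permutation test. Txnrd3, the reductase enriched in testis, was named after its values were seen. It rose by 0.68 ± 0.099, with 24.2 ± 1.92 CPM in EVadMu and 15.1 ± 1.72 CPM in EVMu (SD, n = 3).

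Each reductase moved differently relative to its own thioredoxin. In the cytosol the log2 ratio of Txnrd1 to Txn1 counts was 2.31, 2.44 and 2.29 in EVadMu and 0.78, 0.77 and 0.69 in EVMu, a difference of 1.60. In the mitochondrial pair Txnrd2 to Txn2 it was -2.90, -3.02 and -3.18 in EVadMu and -2.61, -2.85 and -2.62 in EVMu, a difference of -0.34. The reductase gained on its thioredoxin in the first pair, and the thioredoxin gained on its reductase in the second, by less. In the second pair the groups nearly met, at -2.90 in EVadMu replicate 1 and -2.85 in EVMu replicate 2.

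Txnip fell. Its product binds reduced thioredoxin and blocks it, and it also belongs to the alpha-arrestins, which send glucose transporters and other membrane proteins to be taken in. Its level was 17.6, 19.4 and 18.9 CPM in EVadMu and 93.2, 101 and 101 CPM in EVMu. Every EVadMu library was under every EVMu library, and the level was 5.28-fold lower in EVadMu (edgeR adjusted p = 9.80e-28). Raw counts were 283 to 309 in EVadMu and 1447 to 1775 in EVMu. The absolute change was above that of 89.7% of all genes tested, the highest such percentile of the 10 genes. Relative to the thioredoxin it binds, the log2 ratio of Txnip to Txn1 counts was -3.46, -3.15 and -3.43 in EVadMu and -0.94, -0.82 and -0.81 in EVMu, a difference of -2.49.

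Prdx1 and Prdx6 had the largest log2 fold changes of the 4 peroxiredoxins among the 10 genes. Prdx1, the abundant 2-Cys peroxiredoxin of the cytosol, stood at 1152, 1133 and 1170 CPM in EVadMu and 308, 305 and 310.5 CPM in EVMu. The libraries of a group lay close together and far from those of the other, and the level was 3.74-fold higher in EVadMu (edgeR adjusted p = 1.36e-34). Prdx6, the 1-Cys peroxiredoxin, also acts on phospholipids and is reduced with glutathione rather than thioredoxin. It had 605, 616 and 667 CPM in EVadMu and 141, 149 and 139.5 CPM in EVMu, a 4.40-fold rise (edgeR adjusted p = 1.05e-32). EVadMu replicate 3 was the highest of its group for Prdx6, and the lowest EVadMu library was still far above the highest EVMu library. The log2 ratio of Prdx6 to Prdx1 counts was -0.93, -0.88 and -0.81 in EVadMu and -1.13, -1.03 and -1.15 in EVMu. The groups did not overlap, and Prdx6 gained on Prdx1 by 0.23.

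The mitochondrial peroxiredoxins rose by unequal amounts. Prdx5, an atypical 2-Cys peroxiredoxin of mitochondria, peroxisomes and cytosol, had 283, 278 and 272 CPM in EVadMu and 121, 123 and 138 CPM in EVMu, a 2.17-fold rise (edgeR adjusted p = 5.08e-23). Prdx3, the 2-Cys peroxiredoxin of the mitochondrial matrix, had 66.9, 65.3 and 70.6 CPM in EVadMu and 62.0, 55.3 and 56.1 CPM in EVMu. Its groups did not overlap in TMM-scaled CPM, but EVMu replicate 1 came close to EVadMu replicate 2. As unscaled shares of all counts they overlapped, with 0.00643% in EVMu replicate 1 and 0.00627% in EVadMu replicate 2. Prdx3 rose by 17.0% (log2 fold change 0.23 ± 0.056, edgeR adjusted p = 0.000411), and without scaling factors it no longer passed (0.11, adjusted p = 0.0593). The log2 ratio of Prdx5 to Prdx3 counts was 2.08, 2.09 and 1.95 in EVadMu and 0.97, 1.15 and 1.30 in EVMu, a difference of 0.90. Prdx1 gained on Prdx3 by more, 1.68, with log2 count ratios of 4.11, 4.12 and 4.05 in EVadMu and 2.31, 2.46 and 2.47 in EVMu.

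Prdx2 and Prdx4 complete the family of 6 and went the other way. Prdx2, a cytosolic 2-Cys peroxiredoxin that neurons express strongly, was named after its values were seen. It fell by 0.37 on the log2 scale (SE 0.042), with 127.5 ± 4.39 CPM in EVadMu and 165 ± 6.12 CPM in EVMu (SD, n = 3). Prdx4, the peroxiredoxin of the endoplasmic reticulum, fell by 1.32 (SE 0.064), with 25.0 ± 1.28 CPM in EVadMu and 62.4 ± 1.43 CPM in EVMu. The make-up of the family's counts differed accordingly. Prdx1 took 50.2 to 51.0% of the counts on the 6 genes in EVadMu and 35.6 to 35.7% in EVMu, and Prdx6 took 26.8 to 28.7% in EVadMu and 16.0 to 17.4% in EVMu. Prdx2 took 5.28 to 5.87% in EVadMu and 18.6 to 19.7% in EVMu. The share of Prdx5 was slightly smaller in EVadMu, 11.7 to 12.5% against 14.0 to 15.9% in EVMu, although its own level rose. These shares carry the length of each transcript and are compared between the groups only, not between genes.

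**Figure D3:**
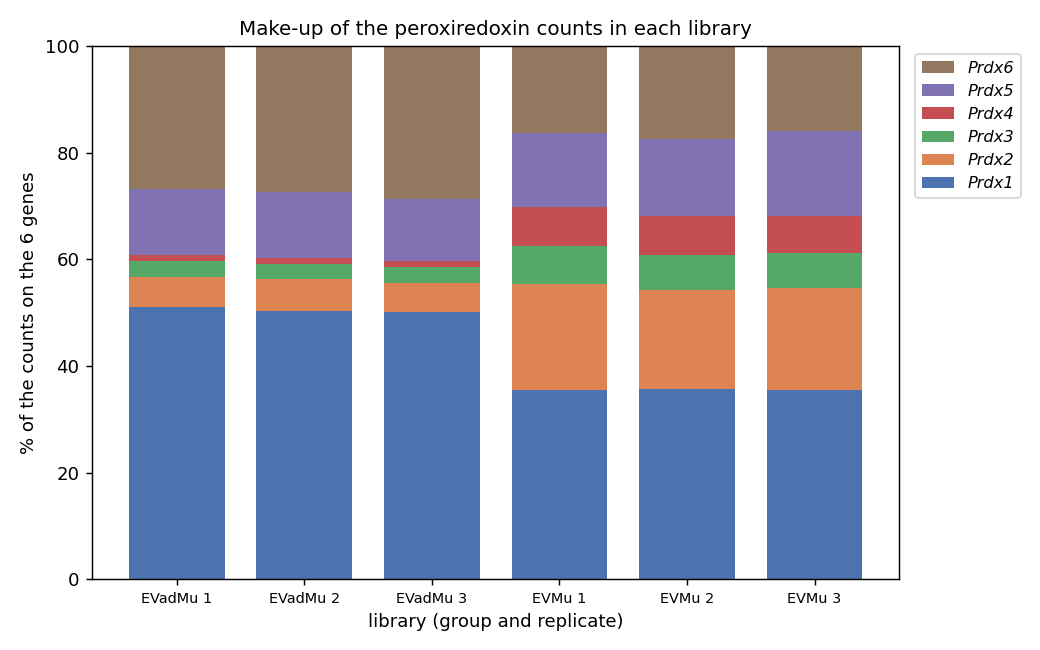
Share of the counts on the 6 peroxiredoxin genes taken by each of them (vertical axis, percent), with 1 bar per library, EVadMu on the left and EVMu on the right. Prdx1 and Prdx6 together fill a larger part of each EVadMu bar, and Prdx2 and Prdx4 a smaller part.

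Srxn1, sulfiredoxin, repairs 2-Cys peroxiredoxins whose cysteine has been over-oxidised by peroxide. Its level was 838, 841 and 857.5 CPM in EVadMu and 692, 714 and 713 CPM in EVMu. The groups did not overlap, and the rise was small at 19.7% (log2 fold change 0.26 ± 0.028, edgeR adjusted p = 1.91e-10). The absolute change was above that of only 17.7% of all genes tested, whereas for Prdx1 this share was 83.6%. The log2 ratio of Srxn1 to Prdx1 counts was -0.46, -0.43 and -0.45 in EVadMu and 1.17, 1.23 and 1.20 in EVMu, a difference of -1.64. Prdx2, the other cytosolic 2-Cys peroxiredoxin named here, fell, and the ratio of Srxn1 to it was not computed. These are ratios of RNA counts, and no protein was measured.

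Of the 9 count ratios compared, 8 did not overlap between the groups and gave p = 0.1 in two-sided exact permutation tests, the smallest value that 3 libraries against 3 allow. The share over ratios of other genes was not computed. Single genes did not overlap for 80.7% of all genes tested, so this number does not set the pairs apart. Adjusted over the 9 pairs these were 0.1125, and the ratio of Txnrd1 to Txnrd2 had 0.2, so no ratio can pass a threshold of 0.05 in this design.

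**Figure D4:**
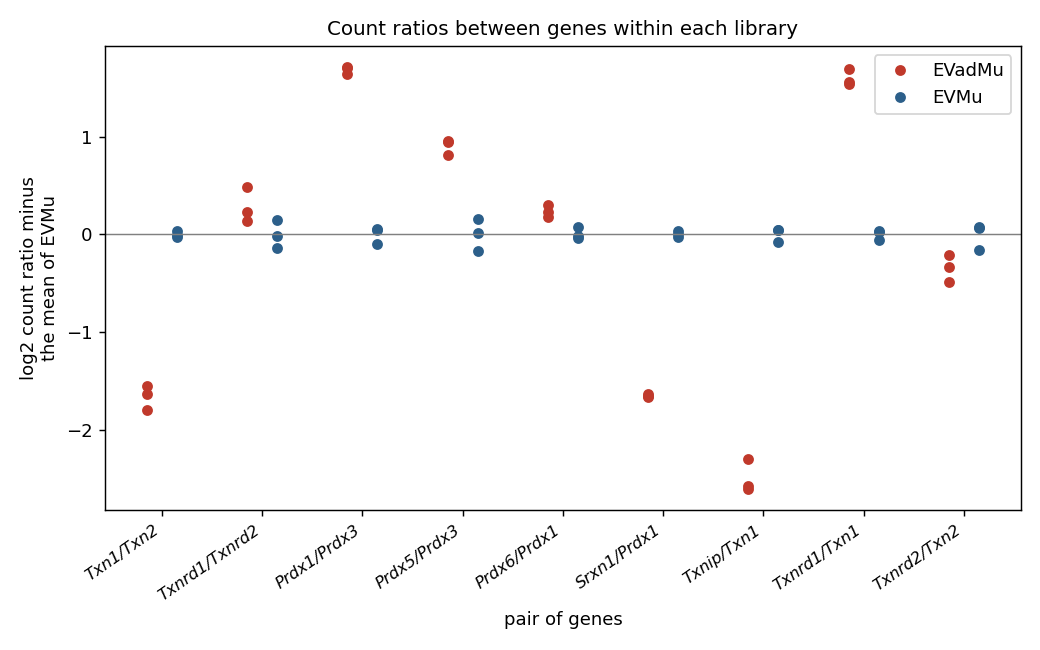
Log2 ratio of the counts of 2 genes within each library, minus the mean of that ratio over the EVMu libraries (vertical axis), for 9 pairs of genes, with 1 point per library, EVadMu in red at the left of each pair and EVMu in blue. Txnip/Txn1, Txn1/Txn2 and Srxn1/Prdx1 lie lowest in EVadMu, Prdx1/Prdx3 and Txnrd1/Txn1 highest, and Txnrd1/Txnrd2 overlaps between the groups.

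Rows whose symbols mark them as copies of these genes took almost no counts. Of these rows, Prdx6b had 10 counts over all 6 libraries, Prdx6-ps2 had 4, and Txn-ps1 and Prdx1-ps had 0. Copies that carry other names were not searched for. How reads with several hits were handled is not given in the sources used here, so reads shared with copies could have been left out of the parent genes.

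The other genes of the thioredoxin fold moved in both directions. Of 19 tested relatives, 9 rose, 8 fell and 2 did not pass, with a median log2 fold change of 0.05. For this list and those below, the share over all genes tested was 80.0% passing, 39.2% as higher and 40.8% as lower. Txnl1, a thioredoxin-like protein linked to the proteasome, rose to 278 ± 14.9 CPM in EVadMu, against 119 ± 1.26 CPM in EVMu (SD, n = 3). Txndc11, of the endoplasmic reticulum, and Txndc9, a partner of the chaperonin that folds tubulin and actin, rose by 1.28 and 1.02 on the log2 scale. Nxn, nucleoredoxin, and Txndc16 fell by 1.14 and 0.83.

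Glutaredoxins use glutathione for reactions like those of thioredoxin, and sestrins are stress proteins. Of these 7 genes 4 were higher and 3 lower, with a median of 0.38. All of them passed the test, as did 80.0% of all genes tested. Sesn2, a known target of the stress factor ATF4, rose to 132 ± 1.74 CPM in EVadMu, against 48.4 ± 1.19 CPM in EVMu (SD, n = 3). Sesn1 and Sesn3, which p53 and FOXO factors are known to drive, fell by 1.83 and 1.59 on the log2 scale. Glrx3, an iron-sulfur glutaredoxin, rose by 0.76, and the cytosolic Glrx fell by 1.03.

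The list of thioredoxin clients had 9 tested genes, and not every protein on it is itself reduced or bound by thioredoxin. Of these genes 1 rose, 6 fell and 2 did not pass, with a median of -0.46. The ribonucleotide reductase subunits that make DNA building blocks in dividing cells fell furthest. Rrm2 had 1.09 ± 0.293 CPM in EVadMu and 113 ± 4.31 CPM in EVMu, and Rrm1 had 24.9 ± 1.81 CPM in EVadMu and 170.1 ± 3.30 CPM in EVMu (SD, n = 3). The methionine sulfoxide reductase Msrb3 fell by 2.23 on the log2 scale, while Msra, another methionine sulfoxide reductase, rose by 1.20. In the same libraries the summed levels of the glial and fibroblast markers, given above, were lower in EVadMu. The part of these cells in the values of the list was not tested.

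Of the 4 other alpha-arrestins tested, Arrdc2 and Arrdc3 rose, Arrdc1 fell and Arrdc4 did not pass. The list of these genes and of the glucose-sensing Mondo factors, which are known to drive Txnip, had 6 tested genes, of which 4 rose, 1 fell and 1 did not pass, with a median of 0.36. Arrdc3 rose to 150.1 ± 4.32 CPM in EVadMu, against 81.9 ± 4.15 CPM in EVMu, and Arrdc2 rose by 0.57 on the log2 scale, while Arrdc1 fell by 1.37. Arrdc4, the closest relative of Txnip in its control by glucose, was named after its values were seen. It stood at 53.7 ± 2.32 CPM in EVadMu and 57.1 ± 1.36 CPM in EVMu, and its log2 fold change of -0.09 did not pass, though it did with upper-quartile factors (-0.14, edgeR adjusted p = 0.0231) and without scaling factors (-0.20, edgeR adjusted p = 0.0017). Mlx, the shared partner of the Mondo factors, rose to 40.7 ± 0.275 CPM in EVadMu, against 14.7 ± 1.28 CPM in EVMu (SD, n = 3).

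NADPH is the fuel of the reductases, and the enzymes that supply it were split. Of 10 tested, 5 rose, 4 fell and 1 did not pass, with a median of 0.44. Pgd, of the oxidative pentose phosphate pathway, rose to 627 ± 10.7 CPM in EVadMu, against 173 ± 5.55 CPM in EVMu (SD, n = 3), while G6pdx, the first enzyme of the same pathway, fell by 0.60 on the log2 scale. The NAD kinases Nadk and Nadk2, of cytosol and mitochondria, rose by 0.89 and 1.67, and the mitochondrial folate enzyme Mthfd2 by 1.14. The isocitrate dehydrogenases Idh1 and Idh2 fell by 0.81 and 0.34.

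The machinery that inserts selenocysteine, on which both reductases depend, had 5 genes higher and 3 lower of 8, with a median of 0.51. Secisbp2, which binds the element that recodes the stop codon, rose by 1.16 on the log2 scale, and Trnau1ap, a partner of the selenocysteine transfer RNA, by 0.98. Secisbp2l, Sephs1 and Pstk fell by 0.79, 1.27 and 0.76.

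Of the 10 genes of the list of NRF2, its partners and regulators and 4 standard targets, 8 rose, 1 fell and 1 did not pass, with a median of 1.61, higher than that of the 10 thioredoxin and peroxiredoxin genes. Gclm, a subunit of the enzyme that starts glutathione synthesis, rose to 470.0 ± 8.81 CPM in EVadMu, against 103 ± 2.67 CPM in EVMu (SD, n = 3). The small MAF genes Maff and Mafk, whose products pair with NRF2, rose by 3.29 and 2.28 on the log2 scale, and the heme oxygenase gene Hmox1 by 5.52. Bach1, a repressor at the same elements, fell by 0.33. Keap1, the sensor that holds NRF2 back, was at -0.05 and did not pass. Without scaling factors it did, at -0.16 (edgeR adjusted p = 0.0125). Genes of these lists were named mainly from those that passed edgeR's adjusted threshold, so that they passed is no result.

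**Figure D5:**
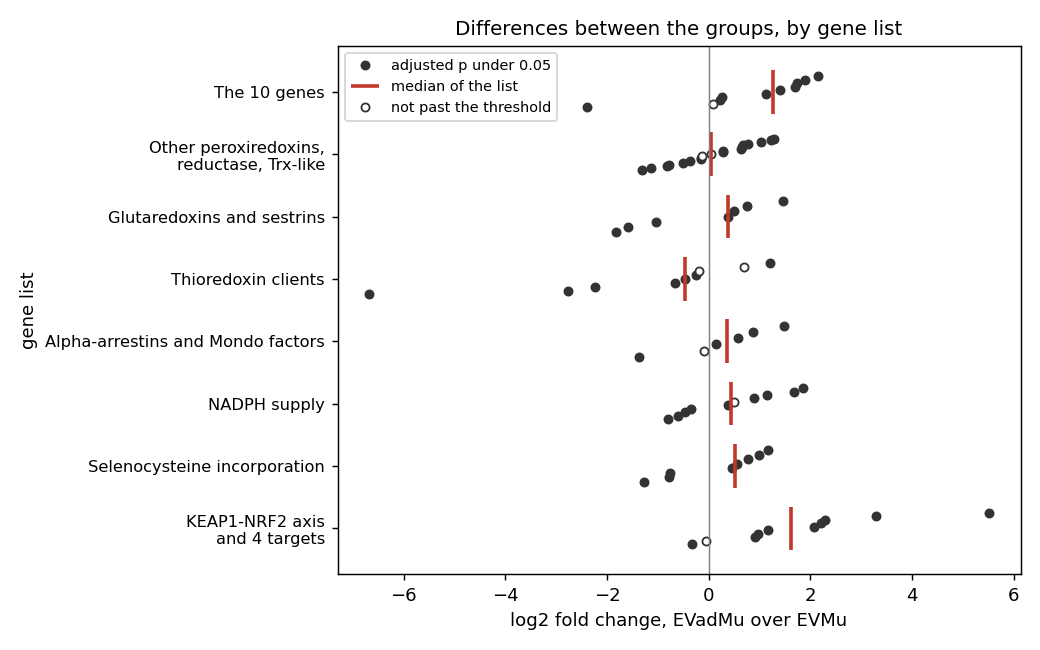
Log2 fold change of EVadMu over EVMu for every tested gene of the 10 described here and of 7 lists of related genes (horizontal axis), with 1 point per gene, filled where the adjusted p was under 0.05, and a red bar at the median of each list. The medians run from -0.46 for the list of thioredoxin clients to 1.61 for the KEAP1-NRF2 list, and each list holds genes on both sides of 0.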

How the data were processed

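RNA of 6 libraries (3 EVadMu, 3 EVMu) was sequenced. The deposited table gives raw read counts, 1 column per library, with no normalisation by the authors. Per the submitters' processing notes, the tools were HISAT2, featureCounts, SAMtools and CASAVA 1.8, with no roles or settings, and the build was mouse mm39, while the labels give rat. Whether reads were lost where rat and mouse sequences differ, and unequally between genes, was not tested. The sources used here give neither strand setting nor annotation release.

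Groups and replicate numbers came from the titles. Genes were filtered with edgeR's default (minimum count 10, minimum total 15), scaled with TMM factors and tested with edgeR 4.0.16 in R 4.3.3 (glmQLFit, glmQLFTest, threshold 0.05). The script was checked on simulated counts in which most genes did not differ between the groups, unlike in these data. That check therefore does not bear on the scaling or on the smallest changes reported here. Levels are TMM-normalised CPM, SDs are over 3 libraries, and the SE of a log2 fold change is its size over the square root of F. Count ratios used a pseudocount of 0.5. Within groups, pairs of libraries varied 2.09 to 3.10 times as much as counting noise alone would give, so none was counted as 1 library. Library totals bound the precision of low genes.

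The members and gene lists were chosen with earlier results of these data known. Up to 4 called genes with the smallest p, and up to 3 going against the majority, were named per list, plus Prdx2, Txnrd3, Arrdc4, Keap1 and Cd68, chosen after their values were seen. One gene of the list of thioredoxin clients is not reported here. Nnt was left out since more than 1 row carries its symbol. Alternatives were RLE, upper-quartile and no scaling factors, no filter or a stricter one (20 counts in 3 libraries and a mean CPM of 1 or more), a block for the replicate number, DESeq2 1.42.0, limma-voom (limma 3.58.1), leaving out each library and, for ratios, a pseudocount of 5.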

Additional observations from a re-analysis of the deposited data

How the results depend on the processing

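Each of the 10 genes was recomputed under 14 alternatives. In 135 of the 140 values the direction and the side of the threshold were those reported. The other 5 were 4 of Txn1 and 1 of Prdx3. Txn1 passed with RLE factors (0.11), with the stricter filter (0.09, adjusted p = 0.0423) and without EVadMu replicate 2 (0.17), and turned to -0.02 without scaling factors. Prdx3 did not pass without scaling factors (0.11). Leaving out scaling factors moved the median of all genes tested to -0.13, against -0.02 with TMM factors. Among 41 other named genes, 571 of 574 values kept direction and call, and the exceptions were those of Arrdc4 and Keap1 given above. The genes of the 10 called higher numbered 7 to 9 over these alternatives, with 1 called lower in each. The replicate number as a block left 8 higher and 1 lower of the 10 genes, and 6557 higher and 6852 lower of all genes, against 6658 and 6939 without it. Same-numbered libraries did not deviate together (correlations of -0.0096 to -0.00368). All 9 count ratios kept their direction under every alternative run, and taking them as differences within replicate numbers cannot give p under 0.25. Txnrd2, with the fewest counts among the genes that rose, is the least precise of the 10.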
